A study of Mus musculus with 4 samples.

Results

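A set of 10 genes, cornified envelope genes and a neighbour of Ivl, was followed in the epidermis of newborn mice with a keratinocyte deletion of Skiv2l. They were the envelope proteins Lor, Ivl, Evpl, Ppl, Cnfn and Kprp, the transglutaminases Tgm1, Tgm3 and Tgm5, and 2310046K23Rik, a small gene that lies beside Ivl. Whether 2310046K23Rik has a part in the envelope was not tested. The genes were selected by name from the 54752 genes of each deposited table, and all 10 were among the 13609 protein-coding genes tested. Total RNA was sequenced from the epidermis of C57BL/6 pups at postnatal day 0, with 2 pups per genotype. In Skiv2l fl/fl K14-Cre pups, Cre recombinase driven by the keratin 14 promoter deletes the floxed gene in keratinocytes, while other cells of the tissue keep it. SKIV2L is the RNA helicase of the SKI complex, which feeds transcripts to the exosome in the cytoplasm. Skiv2l fl/fl K14-Cre is called knockout from here on. The study describes Skiv2l ctl pups as progeny of the same cross as the knockout pups. It does not say whether the sequenced pups shared a litter. The control genotypes of the study were fl/fl and fl/+ without Cre and fl/+ with K14-Cre, and which of them each sequenced control carried was not given, so a control may carry Cre and 1 deleted allele.

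The cornified envelope is an insoluble protein shell that replaces the plasma membrane of a keratinocyte in the last step of its differentiation. Envoplakin, periplakin and involucrin are laid down early beneath the membrane as a scaffold, lipids are attached to the outer face, and loricrin then forms the bulk of the protein. Transglutaminases, which need calcium, join these proteins through bonds between glutamine and lysine side chains, and recessive mutations of TGM1 in people cause lamellar ichthyosis.

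Levels are given as FPKM, sequenced fragments scaled by the authors for transcript length and library size, with replicate 1 before replicate 2 in each genotype. Skiv2l (ENSMUSG00000040356.16, chromosome 17, 34839228 to 34850210 on GRCm38) was at 19.3 and 19.1 FPKM in Skiv2l ctl and at 10.8 and 8.55 FPKM in knockout libraries, a log2 fold change of -0.92 (SE 0.12, adjusted p = 0.00368 by limma with Benjamini-Hochberg adjustment). The study reports by Western blot that SKIV2L protein was depleted in the epidermis of such newborn pups. The source of the remaining Skiv2l RNA was not tested. The ratio of coverage to FPKM, which under the usual definition of these units is the number of aligned gigabases, was between 5.843 and 6.274. Genes were tested with limma on log2(FPKM + 1), and called at an adjusted p under 0.05. The added 1 makes the fold change of a weakly expressed gene appear too small. The smallest two-sided p of an exact permutation test of 2 against 2 pups is 0.33, so each call rests on the spread that limma shares across genes. The epidermal identity of the libraries was checked with marker lists. All 7 basal keratinocyte markers were above 1 FPKM in every library, and their sum was 4729 and 4891 FPKM in Skiv2l ctl and 9798 and 9795 FPKM in knockout. The higher sum came from Krt14, at 1736 and 1812 against 7381 and 7312 FPKM, since the other 6 summed to 2993 and 3079 against 2417 and 2484 FPKM. Besides Krt14, Itgb4 was called higher and Krt15 lower. Of 6 suprabasal markers, 5 were above 1 FPKM in every library and Krt2 was at or below 0.5 in all, with sums of 22884 and 24325 FPKM in Skiv2l ctl and 15707 and 19148 FPKM in knockout. Most of these sums was Krt1, at 12721 and 13157 against 8246 and 9975 FPKM, and Krt10. Krt10 was at 9268 and 10220 against 6378 and 8081 FPKM. Krt1 and Casp14 were called lower and Dsc1 higher, and Krt10 and Dsg1a were not called. Dsc1 was at 365 and 403 against 621 and 615 FPKM, and Casp14 at 270 and 255 against 177 and 178 FPKM. The 6 fibroblast markers summed to 61.3 and 69.0 FPKM in Skiv2l ctl and 21.9 and 25.0 FPKM in knockout, with Lum at or below 0.5 in all 4 libraries. Without Dcn the other 5 summed to 4.38 and 6.31 against 5.02 and 3.6 FPKM, so the sums overlapped. Dcn and Col1a2 were called lower, and Col1a1, Col3a1 and Pdgfra were not called. The 5 leukocyte markers summed to 18.5 and 26.5 against 10.5 and 9.65 FPKM, with Cd207 at or below 0.5 in all, and without Cd74 the other 4 summed to 5.38 and 10.1 against 5.88 and 5.27 FPKM. Cd74 and Ptprc were called lower, as 25.4% of all tested genes were, and Cd3e and Lyz2 were not called. Melanocyte markers summed to between 45.3 and 60.9 FPKM, mucosal epithelium markers to between 1.24 and 6.1 FPKM, and endothelial and muscle markers to at most 0.686 and 0.786 FPKM in any library. The part of these marker levels in the results below was not tested. In bulk RNA, fewer cells of a type and less RNA per cell cannot be told apart.

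In Skiv2l ctl epidermis the 10 genes covered a wide range of expression per length. Lor was highest at 848 ± 27.8 FPKM (SD, n = 2), followed by Kprp, Ppl, Evpl, Cnfn, Tgm1, Ivl, Tgm3 and Tgm5, and 2310046K23Rik was lowest at 6.67 ± 2.62 FPKM (SD, n = 2). No neighbours in this order overlapped between the control libraries. In knockout epidermis the order was Lor, 2310046K23Rik, Cnfn, Kprp, Tgm1, Ppl, Evpl, Ivl, Tgm3 and Tgm5. There, Lor and 2310046K23Rik overlapped, as did Tgm1 and Ppl, and Ivl and Tgm3. Among all tested genes Lor ranked 25 and 24 by FPKM in Skiv2l ctl and 79 and 85 in knockout libraries, whereas 2310046K23Rik ranked 8423 and 6485 in the former and 87 and 79 in the latter.

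**Figure D1:**
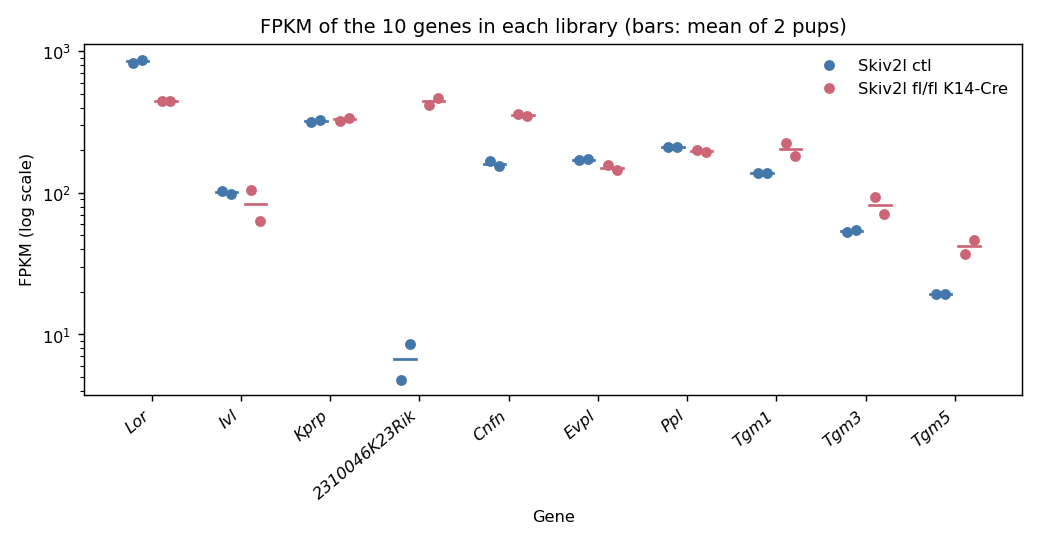
FPKM of the 10 genes in each library on a log axis, with 1 point per pup and a line at the mean of each genotype. Lor sits near 848 FPKM in Skiv2l ctl and near 446 in knockout, and 2310046K23Rik moves from below 10 FPKM to above 400.

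Between the genotypes, 6 of the 10 genes were called. Cnfn, Tgm1, Tgm3, Tgm5 and 2310046K23Rik were higher and Lor was lower in knockout epidermis, and Ivl, Evpl, Ppl and Kprp did not pass the test (limma, n = 2 pups per genotype). With no filter on low FPKM, Lor, Tgm1, Tgm3 and Tgm5 were not called. Over all 13609 tested genes, 34.4% were called, 8.99% as higher and 25.4% as lower. Both knockout libraries were above both controls for 5 of the 10 genes and below both for 3, while 18.2% and 55.3% of all tested genes did so, 73.5% in all. The median log2 fold change was 0.29 over the 10 genes and -0.20 over all tested genes. Because the whole distribution was shifted, the change of a gene relative to that median is given beside its own value.

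**Figure D2:**
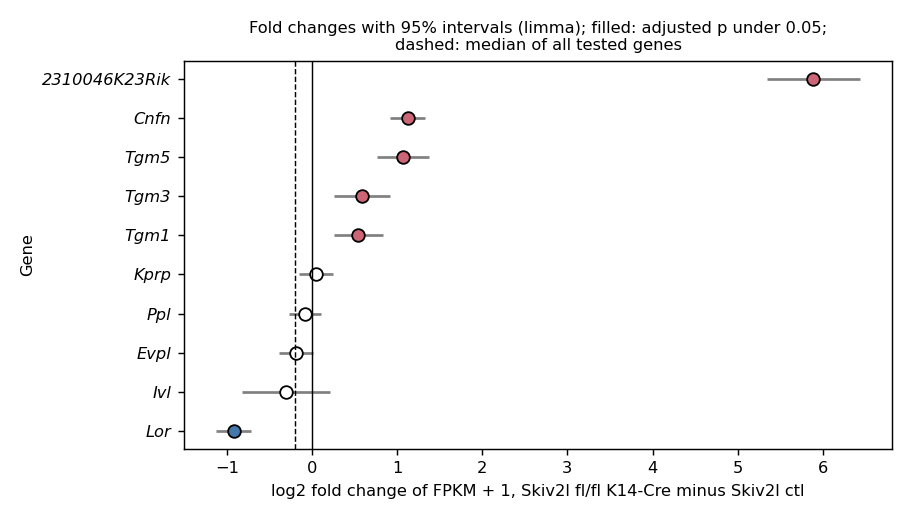
Log2 fold change of each gene, knockout over Skiv2l ctl on the log2(FPKM + 1) scale, with 95% intervals from limma and the median of all tested genes as a dashed line. The intervals of 2310046K23Rik, Cnfn, Tgm5, Tgm3 and Tgm1 lie above 0, that of Lor lies below 0 at -1.13 to -0.72, and those of Ivl, Evpl, Ppl and Kprp include 0.

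Lor, Ivl, Kprp and 2310046K23Rik lie in 1 stretch of chromosome 3, and each has 2 exons. Their coding sequences are rich in a few kinds of codon, shown here because these make up the repeats of the encoded proteins. Of the 486 codons of Lor, 55.3% are glycine codons (GGN), against a median of 6.03% over 21551 mouse coding sequences. In Ivl, 26.7% of 468 codons are glutamine codons (CAA or CAG), against a median of 4.33%. The glutamines are the residues that transglutaminases join to lysine. Kprp has 657 codons, 18.0% of them proline codons (CCN). The short coding sequence of 2310046K23Rik has 87 codons, of which 32.2% are CAA or CAG, 29.9% are proline codons (CCN, median 5.28%) and 18.4% are cysteine codons (TGC or TGT, median 2.13%), and none is GGN. In 16 Sprr genes, which encode small proline-rich envelope proteins, these shares were 6.3 to 25.0%, 9.17 to 42.6% and 4.62 to 21.4%. Stretches of 30 codons from the GENCODE M21 transcripts follow, with the codons of the named class in capitals: GGN in codons 21 to 50 of Lor, CAA or CAG in codons 119 to 148 of Ivl, and CCN in codons 16 to 45 of 2310046K23Rik.
Lor: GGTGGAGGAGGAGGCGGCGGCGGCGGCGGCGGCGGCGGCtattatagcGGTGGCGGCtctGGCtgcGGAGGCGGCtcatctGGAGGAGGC
Ivl: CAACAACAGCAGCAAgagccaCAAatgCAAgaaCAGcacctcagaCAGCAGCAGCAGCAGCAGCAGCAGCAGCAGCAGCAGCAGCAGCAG
2310046K23Rik: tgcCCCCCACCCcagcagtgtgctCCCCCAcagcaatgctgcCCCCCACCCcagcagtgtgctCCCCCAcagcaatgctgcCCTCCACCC

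Lor (ENSMUSG00000043165.7, chromosome 3, 92080271 to 92083142, minus strand), which encodes loricrin, was the gene called lower. Its FPKM was 828 and 867 in Skiv2l ctl and 448 and 444 in knockout libraries. The pups of each genotype were close to each other and the genotypes did not overlap. The mean fell to 0.526 of the control mean, a log2 fold change of -0.92 (SE 0.08, adjusted p = 0.00109 by limma with Benjamini-Hochberg adjustment), or -0.73 relative to the median of all tested genes.

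Ivl (ENSMUSG00000049128.7, chromosome 3, 92570902 to 92573735, minus strand), which encodes involucrin, had an FPKM of 103 and 98.7 in Skiv2l ctl and 104 and 63.5 in knockout libraries. Only the second knockout pup was below the controls, and the genotypes overlapped. The log2 fold change was -0.31 (95% interval -0.83 to 0.21, adjusted p = 0.291 by limma with Benjamini-Hochberg adjustment), or -0.11 relative to the median of all tested genes. The knockout pups differed from each other by 0.70 on the log2 scale, a gap exceeded by 2.2% of tested genes. Without knockout replicate 1 the log2 fold change was -0.66 (limma adjusted p = 0.00824), and without replicate 2 it was 0.04 (limma adjusted p = 0.734), so the direction for Ivl rests on 1 pup. The ratio of Lor to Ivl was 8.08 and 8.79 in Skiv2l ctl and 4.33 and 7.0 in knockout libraries.

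Kprp (ENSMUSG00000059832.4, chromosome 3, 92823074 to 92827247, minus strand), which encodes keratinocyte proline-rich protein, had an FPKM of 315 and 326 in Skiv2l ctl and 323 and 337 in knockout libraries. The genotypes overlapped. Its log2 fold change of 0.04 had an interval of -0.16 to 0.24 (adjusted p = 0.714 by limma with Benjamini-Hochberg adjustment), or 0.24 relative to the median of all tested genes, and it was -0.01 with TPM and -0.09 after quantile normalization.

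2310046K23Rik (ENSMUSG00000102308.1, chromosome 3, 92532505 to 92534511, minus strand) had an FPKM of 4.81 and 8.53 in Skiv2l ctl and 415 and 470 in knockout libraries. The lower knockout pup was far above the higher control. The mean rose 66.3-fold, with a log2 fold change of 5.89 (SE 0.22, adjusted p = 5.31e-05 by limma with Benjamini-Hochberg adjustment), or 6.09 relative to the median of all tested genes, and it ranked 4 among the 13609 tested genes. Lor exceeded 2310046K23Rik 172-fold and 102-fold in the Skiv2l ctl libraries, and the ratio was 1.08 and 0.945 in the knockout libraries.

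The stretch from Lor to Kprp spans 747 kb and holds 37 tested genes, of which 20 were called higher and 3 lower, where 8.99% and 25.4% of all tested genes were. Their median log2 fold change was 1.10. This interval and its split were chosen after the values were seen, and the Sprr2 genes in it are closely related paralogs, among which the counting may have divided reads. Between Lor and 2310046K23Rik, 15 of 17 tested genes were called higher, at a median of 3.60, and between 2310046K23Rik and Kprp, 4 of 17 were called higher and 2 lower, at a median of -0.12. The nearest tested gene on the Lor side is Sprr4, at -33.1 kb, with 7.12 and 11.9 FPKM in Skiv2l ctl and 14.8 and 14.6 FPKM in knockout. It was not called (log2 fold change 0.62, limma adjusted p = 0.0659). On the other side the nearest is Ivl at 38.8 kb.

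**Figure D3:**
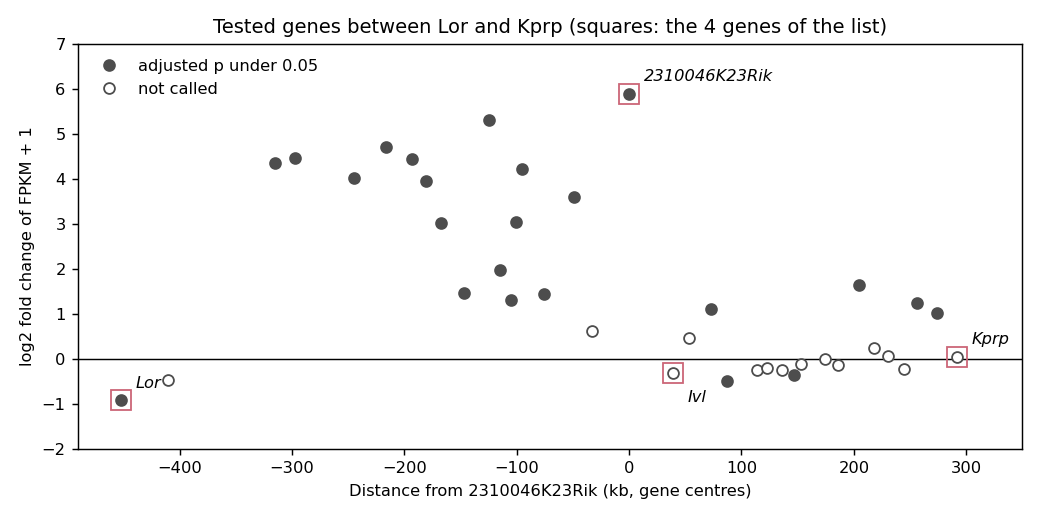
Log2 fold change of the 37 tested genes from Lor to Kprp on chromosome 3 against the distance of each gene from 2310046K23Rik in kilobases, with filled points for called genes and squares around Lor, 2310046K23Rik, Ivl and Kprp. Most genes on the Lor side lie above 0 and most on the Kprp side lie near 0, and 2310046K23Rik has the highest value.

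Envoplakin and periplakin are plakin proteins that pair with each other beneath the membrane. Evpl (ENSMUSG00000034282.3, chromosome 11, 116220559 to 116238077, minus strand) had an FPKM of 170 and 172 in Skiv2l ctl and 156 and 144 in knockout libraries. Ppl (ENSMUSG00000039457.4, chromosome 16, 5086291 to 5132421, minus strand) was at 209 and 209 FPKM and at 200 and 194 FPKM. For both genes the knockout libraries lay below the controls by a small margin. Neither passed the test. The log2 fold change of Evpl was -0.19 (95% interval -0.39 to 0.01, adjusted p = 0.125 by limma with Benjamini-Hochberg adjustment) and that of Ppl was -0.09 (-0.27 to 0.10, limma adjusted p = 0.41), and they were 0.03 and 0.13 after the libraries were scaled to a common median FPKM. Relative to the median of all tested genes they were 0.01 and 0.11. The ratio of Evpl to Ppl was 0.815 and 0.82 in Skiv2l ctl and 0.781 and 0.743 in knockout libraries.

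Cnfn (ENSMUSG00000063651.11, chromosome 7, 25367620 to 25369724, minus strand) encodes cornifelin, a small cysteine-rich envelope protein. Its FPKM was 167 and 155 in Skiv2l ctl and 359 and 347 in knockout libraries. The genotypes were well apart and the pups within each were close. Cnfn rose 2.19-fold, a log2 fold change of 1.13 (SE 0.08, adjusted p = 5.71e-04 by limma with Benjamini-Hochberg adjustment), or 1.33 relative to the median of all tested genes.

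All 3 transglutaminases were higher in knockout epidermis. Tgm1 (ENSMUSG00000022218.16, chromosome 14, 55700009 to 55713926, minus strand), which encodes the membrane-bound enzyme, had an FPKM of 138 and 138 in Skiv2l ctl and 225 and 181 in knockout libraries. The genotypes did not overlap, and the knockout pups differed more than the controls. Tgm1 rose 1.47-fold, a log2 fold change of 0.54 (SE 0.12, adjusted p = 0.0166 by limma with Benjamini-Hochberg adjustment), or 0.74 relative to the median of all tested genes. Some of its exons overlap Gm49067, an antisense gene at 1.34 FPKM or less in every library. Of the 75-base stretches of the Tgm1 transcripts, 3.37% occur in another gene, which is Gm49067 alone. The other 9 genes share none.

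Tgm3 (ENSMUSG00000027401.9, chromosome 2, 130012349 to 130050399, plus strand), which encodes a soluble enzyme of the upper epidermis and the hair follicle, had an FPKM of 53.1 and 54.9 in Skiv2l ctl and 93.6 and 71.2 in knockout libraries. Both knockout pups were above both controls. Tgm3 rose 1.53-fold, a log2 fold change of 0.59 (SE 0.14, adjusted p = 0.0208 by limma with Benjamini-Hochberg adjustment), or 0.79 relative to that median. The 7 inner root sheath markers summed to 103 and 127 FPKM in Skiv2l ctl and 60.8 and 69.8 FPKM in knockout, and without Gata3 the other 6 summed to 32.8 and 57.0 against 28.2 and 27.9 FPKM. Krt27, Tchh and Gata3 were called lower, where 25.4% of all tested genes were, and Krt25, Krt28, Krt71 and Krt73 were not called, at log2 fold changes of -0.01, 0.10, -0.62 and 0.33. The part of hair follicle cells in the Tgm3 level was not tested. Without Skiv2l ctl replicate 1 the log2 fold change was 0.54 for Tgm1 and 0.57 for Tgm3. Without Skiv2l ctl replicate 2 it was 0.54 and 0.61. Both calls were lost in each of these fits, in which only the knockout pups give a spread. Fewer of all tested genes were called there too.

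Tgm5 (ENSMUSG00000053675.8, chromosome 2, 121046111 to 121085841, minus strand), whose human counterpart is mutated in acral peeling skin syndrome, had an FPKM of 19.2 and 19.4 in Skiv2l ctl and 36.9 and 46.8 in knockout libraries. The genotypes were well apart. Tgm5 rose 2.16-fold, a log2 fold change of 1.07 (SE 0.13, adjusted p = 0.00235 by limma with Benjamini-Hochberg adjustment), or 1.26 relative to that median. It was still called whichever library was left out. The pup with the higher Tgm5 was knockout replicate 2, whereas Tgm1 and Tgm3 were higher in replicate 1.

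The sum of the 3 enzymes was 211 and 212 FPKM in Skiv2l ctl and 355 and 299 FPKM in knockout libraries. Tgm1 made up 65.7 and 65.0% of this sum in Skiv2l ctl and 63.3 and 60.6% in knockout. The share of Tgm5 was 9.13 and 9.15% in Skiv2l ctl and 10.4 and 15.6% in knockout. Tgm1 was the most abundant of the 3 in every library, and the share of Tgm5 was largest in the second knockout pup. These shares are within a library, so its scaling does not enter, and they were not tested.

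**Figure D4:**
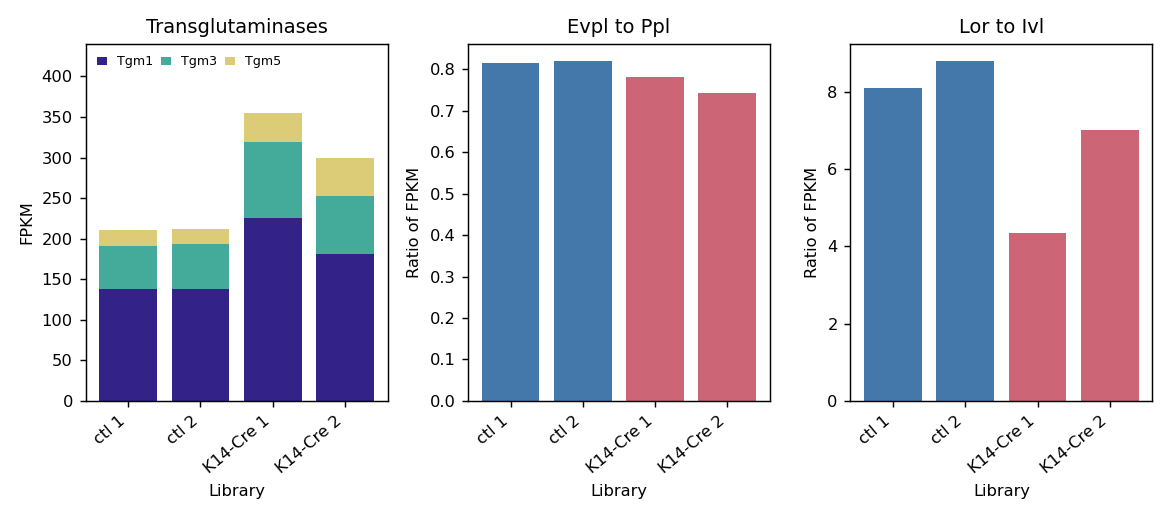
Stacked FPKM of Tgm1, Tgm3 and Tgm5, the ratio of Evpl to Ppl and the ratio of Lor to Ivl, each with 1 bar per library. The stacks reach 211 and 212 FPKM in Skiv2l ctl and 355 and 299 FPKM in knockout (K14-Cre) libraries, and the ratio of Lor to Ivl is lowest, at 4.33, in knockout replicate 1.

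Together the 10 genes held 0.558 and 0.557% of the library FPKM in Skiv2l ctl and 0.632 and 0.607% in knockout. Without 2310046K23Rik the shares were 0.557 and 0.555% against 0.521 and 0.483%. Lor was 41.3 and 42.3% of the summed FPKM of the 10 genes in Skiv2l ctl and 19.0 and 19.3% in knockout, whereas 2310046K23Rik was 0.24 and 0.416% and then 17.6 and 20.4%. The sum over the 10 genes was therefore higher in knockout only with 2310046K23Rik counted.

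RefSeq promoters on GRCm38.p6 matched 6 of the 10 genes. The 250 bases before the start were searched on both strands for the AP-1 site TGANTCA, the TATA box TATAAA and the Sp1 box GGGCGG, whose matches did not overlap in these windows and which occur in 6.75%, 12.4% and 32.7% of 32851 promoters. Lor, the gene called lower, and Ivl each held TGANTCA and TATAAA, and Tgm3 held TATAAA. Cnfn held GGGCGG on the other strand, as did 1 of 2 Tgm1 starts, at 2 places. Tgm5 held none of the 3. Only exact matches were counted, so variants of these letters, such as the TATAAG in the Cnfn window, were not. The TATAAA of Lor began 27 bases and that of Ivl 29 bases before the start, and their AP-1 matches began 48 and 116 bases before it. The windows of Lor (chr3:92083143-92083392), Ivl (chr3:92573736-92573985), Cnfn (chr7:25369725-25369974) and Tgm5 (chr2:121085842-121086091), all on the minus strand, are shown with matches in capitals, because they include the gene called lower and 2 genes called higher.
Lor: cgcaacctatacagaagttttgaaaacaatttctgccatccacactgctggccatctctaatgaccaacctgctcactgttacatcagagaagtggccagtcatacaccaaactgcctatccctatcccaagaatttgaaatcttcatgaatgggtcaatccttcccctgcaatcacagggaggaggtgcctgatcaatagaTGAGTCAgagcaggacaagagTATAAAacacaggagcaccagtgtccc
Ivl: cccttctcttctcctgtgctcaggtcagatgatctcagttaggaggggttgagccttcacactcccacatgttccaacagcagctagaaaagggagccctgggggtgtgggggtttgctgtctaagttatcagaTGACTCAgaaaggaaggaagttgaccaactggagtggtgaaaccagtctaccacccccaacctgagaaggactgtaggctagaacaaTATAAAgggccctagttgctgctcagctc
Cnfn: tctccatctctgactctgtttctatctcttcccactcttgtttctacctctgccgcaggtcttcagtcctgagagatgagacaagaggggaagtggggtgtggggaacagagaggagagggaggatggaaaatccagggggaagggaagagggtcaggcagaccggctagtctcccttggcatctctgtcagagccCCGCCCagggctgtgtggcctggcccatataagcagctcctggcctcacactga
Tgm5: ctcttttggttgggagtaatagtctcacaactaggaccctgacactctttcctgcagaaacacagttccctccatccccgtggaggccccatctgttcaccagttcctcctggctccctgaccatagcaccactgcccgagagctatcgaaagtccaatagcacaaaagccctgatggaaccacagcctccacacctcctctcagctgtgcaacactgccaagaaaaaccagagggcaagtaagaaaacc

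Other genes of the envelope pathway were taken from lists by their known function, drawn up with earlier results of these data already known. Of 5 other plakins, which link keratin filaments and other cytoskeleton to junctions, 3 were called higher and 2 did not pass the test, at a median log2 fold change of 0.71, while 8.99% of all tested genes were called higher. Without Skiv2l ctl replicate 1 the count was 1, and with no filter it was 0. Dsp, which encodes desmoplakin of the desmosome, rose from 770 ± 41.6 to 1257 ± 61.5 FPKM (SD, n = 2, limma adjusted p = 0.00381). Eppk1, which encodes epiplakin, rose from 345 ± 43.0 to 699 ± 72.1 FPKM (SD, n = 2, limma adjusted p = 0.00266). Macf1, which encodes a linker of microtubules and actin, rose from 47.1 to 121 FPKM (limma adjusted p = 0.00818), with the knockout pups at 152 and 91.0 FPKM. Plec and Dst were not called, at log2 fold changes of 0.05 and 0.14.

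Among 6 genes that regulate or activate transglutaminases, 4 were called higher, with a median log2 fold change of 0.65, against 8.99% of all tested genes called higher. The count was 2 without Skiv2l ctl replicate 1 and 2 with no filter. Cst6, which encodes the cystatin M/E inhibitor of cathepsin L and legumain, rose from 31.0 ± 2.41 to 58.7 ± 8.98 FPKM (SD, n = 2, limma adjusted p = 0.00411). Ctsl, which encodes cathepsin L, rose from 56.7 ± 0.246 to 98.5 ± 7.97 FPKM (SD, n = 2, limma adjusted p = 0.00209), and Ctsd, which encodes cathepsin D, from 311 ± 15.7 to 446 ± 67.1 FPKM (limma adjusted p = 0.0231). The inhibitor Cst6 and its target Ctsl were thus higher in the same libraries. Capn2, a calpain subunit, rose from 15.0 ± 1.05 to 60.5 ± 9.04 FPKM (SD, n = 2, limma adjusted p = 3.46e-04), while Capn1 and Lgmn were not called at log2 fold changes of -0.10 and -0.05.

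Outside the 3 epidermal enzymes the transglutaminase family was near the detection filter. Of 6 other members, 3 were tested, and the highest value of any in any library was 1.03 FPKM for Tgm4. F13a1, the catalytic subunit of coagulation factor XIII, was called higher at 0.0763 and 0.079 against 0.448 and 0.629 FPKM (limma adjusted p = 0.046) and Tgm7 lower at 0.816 and 0.698 against 0.316 and 0.151 FPKM (limma adjusted p = 0.0466). Both calls were lost when any 1 library was left out. Tgm4 was not called, and Tgm2, Tgm6 and Epb42 were not tested.

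Of 13 tested genes among 14 other envelope precursors, 3 were called higher and 3 lower, where 8.99% and 25.4% of all tested genes were, so the lower count is near the share over all genes. The median log2 fold change was -0.22. The lower count was 6 with TPM and 7 after quantile normalization. Rptn, which encodes repetin, rose from 40.1 ± 4.48 to 975 ± 64.2 FPKM (SD, n = 2, limma adjusted p = 1.34e-05). Csta1, which encodes a stefin A protease inhibitor, rose from 71.5 ± 0.294 to 189 ± 7.41 FPKM (SD, n = 2, limma adjusted p = 2.36e-04). Flg2, which encodes filaggrin-2, fell from 671 ± 50.1 to 247 ± 34.5 FPKM (SD, n = 2, limma adjusted p = 8.31e-04), with a log2 fold change of -1.44 against -0.92 for Lor. Of 10 enzymes and carriers of the lipid envelope, 5 were called higher, against 8.99% of all tested genes, and the median log2 fold change of the 10 was 0.21. Ugcg, which encodes glucosylceramide synthase, rose from 35.6 ± 0.967 to 52.1 ± 4.89 FPKM (limma adjusted p = 0.00932), Cers3, a ceramide synthase, from 50.8 ± 3.3 to 71.6 ± 4.98 FPKM (limma adjusted p = 0.012) and Abhd5, a lipase cofactor, from 36.8 ± 1.4 to 49.3 ± 6.74 FPKM (limma adjusted p = 0.0365). None of the 5 remained called without Skiv2l ctl replicate 1 or without Skiv2l ctl replicate 2.

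**Figure D5:**
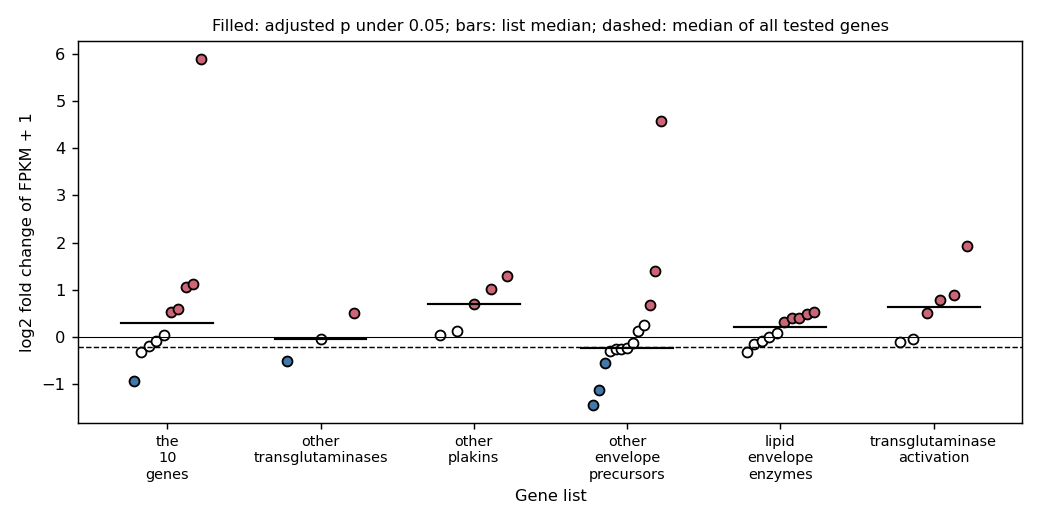
Log2 fold change of each tested gene of the 10 genes and of the 5 pathway lists, on the log2(FPKM + 1) scale, with the median of each list and of all tested genes. The medians of the other plakins at 0.71 and of the transglutaminase activation list at 0.65 are the highest, and that of the other envelope precursors is -0.22.

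For each gene, the tested gene with the most similar 4 values of log2(FPKM + 1) was found by Euclidean distance, a measure over only 4 libraries. Tgm1 was closest to Endou (distance 0.09), at 144 and 143 FPKM in Skiv2l ctl and 231 and 181 FPKM in knockout. Tgm3 was closest to Slc27a4 (0.12), Tgm5 to Fkbp5 (0.23) and Cnfn to Spink5 (0.26). Evpl was closest to Ptbp1 (0.09), Ppl to Btf3 (0.13), Kprp to Rpl34 (0.14), Ivl to Ces2g (0.29) and Lor to Itm2b (0.48). 2310046K23Rik had the least similar neighbour, Klk6 at a distance of 1.04, with 6.81 and 9.39 FPKM in Skiv2l ctl and 306 and 263 FPKM in knockout.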

How the data were processed

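Epidermal total RNA of 4 C57BL/6 pups, 2 per genotype, was analysed, and replicate numbers come from the sample titles. FPKM values were deposited by the authors, who made them with the Astrocyte RNA-seq workflow. TPM values deposited by the authors were used as an alternative, and the coverage signal deposited by the authors for depth only. The build is GRCm38 per the labels, and the aligner, strandedness and read length are not given in the sources used here. Identifiers listed more than once (13 to 16 repeated rows per library) were summed. Of 21921 protein-coding genes (GENCODE M21), the 13609 with FPKM above 0.5 in at least 1 library, the filter of the study, were compared by limma 3.58.1 (R 4.3.3) on the scale of log2(FPKM + 1) (eBayes with a trend, two-sided, Benjamini-Hochberg over all tested genes). The procedure was also run on values simulated from the spread fitted by limma, without a shift of the whole distribution. That run does not show whether the calls here are right. Depth, estimated from the most frequent ratio of coverage to FPKM, was 5.843 to 6.274 aligned gigabases. Genes of any type above 0.5 FPKM numbered 17761 and 17638 in Skiv2l ctl and 17384 and 16138 in knockout libraries. The cause of the lower number in knockout replicate 2 was not tested. No counts were used, and the number of pups limits precision. Intervals are 95% intervals of limma.

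Members and lists were chosen with earlier results of these data known. The text names all 10 genes, Skiv2l, every gene of lists of up to 6 genes, the 3 largest called changes of longer lists, and the nearest profile of each gene. Sprr4, Gm49067, single marker genes and the other genes of the chromosome 3 interval were chosen after values were seen. Sequences are from GENCODE M21 transcripts and RefSeq. Alternatives were a pseudocount of 0.1, FPKM above 1 in at least 2 libraries, no filter, TPM, median scaling, quantile normalization, a replicate block, no trend, and leaving out each library.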

Additional observations from a re-analysis of the deposited data

How the results depend on the processing

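Results are given for 12 alternatives, and the cause of each difference below was not tested. Of all tested genes, 1223 were called higher and 3455 lower. These were 475 and 927 with no filter and 1894 and 1623 with median scaling, and 1917 were lower after quantile normalization. The share of called genes that were higher was 26.1%, 53.9% with median scaling and 46.8% after quantile normalization. Leaving out 1 library gave 497 to 1146 higher and 805 to 3135 lower, with the lone library of a genotype assumed to vary like the other genotype. Of the 10 genes, 5 were called higher and 1 lower. With no filter 2 were higher and 0 lower, since Lor (limma adjusted p = 0.0549), Tgm1 (0.134), Tgm3 (0.163) and Tgm5 (0.0651) lost their calls. Leaving out 1 library gave 3 to 5 higher and 1 to 2 lower. The direction reversed for Ivl without knockout replicate 2, at 0.04 (-0.66 without replicate 1), for Evpl at 0.03 and Ppl at 0.13 with median scaling, and for Kprp at -0.01 with TPM and -0.09 after quantile normalization. Cnfn and 2310046K23Rik kept direction and call under all 12.

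The 1 higher and 1 lower call of the other transglutaminases fell to 0 and 0 with the stricter filter, no filter, the replicate block or any library left out, and the lower call to 0 with a pseudocount of 0.1 and both scalings. The 3 other plakins were 0 with no filter and 1 to 3 with a library left out (1 without Skiv2l ctl replicate 1). The other envelope precursors were 5 higher with median scaling, and 0, 6 and 7 lower with no filter, TPM and quantile normalization. The 5 lipid envelope enzymes were 0 with no filter, 3 after quantile normalization, 2 with no trend and 0 to 3 with a library left out, with 0 to 1 lower. The 4 genes of transglutaminase activation were 2 with no filter and 2 to 4 with a library left out (2 without Skiv2l ctl replicate 1).

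The replicate differences of the genotypes correlated at -0.077 over all tested genes. This gave no sign of a shift shared by equal replicate numbers, but 1 difference per genotype cannot show whether the pups were paired. With the replicate block, 1264 genes were called higher and 3393 lower, and of the 10 genes 5 were higher and 1 lower.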
